A study of Mus musculus with 30 samples.

Results

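The NMDA receptor subunit genes are 7 of the 19737 genes in the deposited whole-brain expression table: *Grin1*, *Grin2a*, *Grin2b*, *Grin2c*, *Grin2d*, *Grin3a* and *Grin3b*. They were chosen as a gene family by name, over all groups, together with the *Grin2b* to *Grin2a* ratio in each mouse. The rule that picks them uses gene names and no measured value, but it was set with earlier results of these data known. The study asks how heterozygous loss of *Arid1b*, a subunit gene of the BAF (SWI/SNF) chromatin remodelling complex, changes the mouse brain, and what early exposure to fluoxetine, a serotonin reuptake inhibitor, does to it. RNA of the whole brain was sequenced in 30 libraries, 1 per mouse, from male C57BL/6N mice in 6 groups of 5. At postnatal day 10 (P10) the groups were *Arid1b*+/- (HT) and *Arid1b*+/+ (WT) pups that received no drug. At P120 there were HT and WT mice whose dams drank vehicle (HT-Veh, WT-Veh) and HT and WT mice whose dams drank fluoxetine at 0.1 mg/ml (HT-Flx, WT-Flx). Dams drank from P3 to P21 and the pups took the drug up through the milk. Both fluids held 0.2% saccharin, which the P10 mice did not receive. The allele was made by CRISPR targeting of exon 5, it is present in every cell of the body, and HT mice came from HT fathers and WT mothers. All values are normalized counts, read counts per gene that the authors scaled between libraries.

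NMDA receptors are glutamate-gated cation channels that also need glycine or D-serine as a co-agonist, and that open only when glutamate binding coincides with a depolarized membrane, which relieves the block by magnesium. Each receptor is a tetramer of obligatory GluN1 subunits, encoded by *Grin1*, with GluN2 subunits (*Grin2a* to *Grin2d*) or GluN3 subunits (*Grin3a*, *Grin3b*). The GluN2 subunit sets how long the channel stays open and how it is anchored at the synapse. In rodent forebrain GluN2B predominates around birth and GluN2A joins it over the first postnatal weeks, which is known as the GluN2B to GluN2A switch. GluN2C is a subunit of cerebellar granule cells and of some astrocytes, GluN2D is largely an early subunit of brainstem, midbrain and interneurons, and GluN3A is a juvenile subunit that lowers calcium entry.

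A conserved part of these genes encodes the third transmembrane segment, which forms the gate of the channel. Its 60 coding bases are shown for 4 members, with at least 1 of each subunit class, because they make visible that the members are related genes with separate coding sequence, so that a read can be given to 1 member. Each line gives the gene and the GRCm38 position of the bases, all within 1 coding exon, read 5′ to 3′ on the gene's own strand. Capitals mark the 31 bases that are the same in these 4 genes.
Grin1, chr2:25297193-25297252, minus strand, exon 15: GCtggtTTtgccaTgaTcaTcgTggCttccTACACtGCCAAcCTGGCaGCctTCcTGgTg
Grin2a, chr16:9653441-9653500, minus strand, exon 10: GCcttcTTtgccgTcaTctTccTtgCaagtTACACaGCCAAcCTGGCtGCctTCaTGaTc
Grin2c, chr11:115253743-115253802, minus strand, exon 11: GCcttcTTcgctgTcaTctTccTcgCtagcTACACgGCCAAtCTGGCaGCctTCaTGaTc
Grin3b, chr10:79974609-79974668, plus strand, exon 3: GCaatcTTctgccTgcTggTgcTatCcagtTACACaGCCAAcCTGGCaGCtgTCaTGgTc

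Within this stretch *Grin2a* and *Grin2c* were identical at 86.7% of bases, *Grin1* was identical to either of them at 70% and to *Grin3b* at 60%, and *Grin3b* to *Grin2a* at 70% and to *Grin2c* at 66.7%. Over whole transcripts, runs of 31 bases were shared only by *Grin2b* with *Grin2c* (4 runs) and by *Grin2c* with *Grin2d* (2 runs). The genes also differ in length and base composition. *Grin2a* (ENSMUSG00000059003, chr16:9567898-9995560) and *Grin2b* (ENSMUSG00000030209, chr6:135713233-136173511) have long transcripts of 14634 and 24060 bases with a GC content of 44.8% and 45.7%. *Grin3a* (ENSMUSG00000039579, chr4:49661611-49845744) has 7491 bases and 49.2% GC. The other members are short and rich in GC: *Grin1* (ENSMUSG00000026959, chr2:25291181-25319187) with 4276 bases and 59.4%, *Grin2c* (ENSMUSG00000020734, chr11:115249169-115267243) with 4895 bases and 62.1%, *Grin2d* (ENSMUSG00000002771, chr7:45831883-45878378) with 5431 bases and 65.0%, and *Grin3b* (ENSMUSG00000035745, chr10:79970715-79977190) with 3283 bases and 63.5%. Exons of *Grin1*, *Grin2b*, *Grin2d* and *Grin3b* overlap exons of a gene on the opposite strand (*Grin1os*, *Gm26653*, *Gm45441* and *Tmem259*). The labels do not say whether strand was used in counting, so these values may hold reads of the neighbour, above all for *Grin3b*, at 22.1 to 139.1, beside *Tmem259*, at 3686 to 8889.

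Facts of the libraries bear on every result. *Arid1b* itself lay at 1973 to 2616 in 14 of the 15 HT libraries and at 2961 to 3392 in 14 of the 15 WT libraries, but at 3361 in the library labelled HT-Veh replicate 2 and at 2320 in the library labelled WT-Veh replicate 2, which go against their labels. HT-Veh and WT-Veh were therefore compared in replicates 1, 3, 4 and 5. The tests of subunit genes that use vehicle mice elsewhere are given with and without both libraries. For the ratio this holds for age within a genotype and fluoxetine within a genotype, while its other tests are given in 1 setting. Within the P120 libraries, the mean level of genes in the highest of 10 bins of GC content minus that in the lowest bin (the GC gap, log2, each gene relative to its mean over the libraries) ran from 0.56 to 1.33 in HT-Flx and from -0.81 to -0.62 in WT-Flx, from -0.78 to 0.84 in HT-Veh and from -0.53 to 0.46 in WT-Veh, and within the P10 libraries from -0.35 to 0.094. The summed markers of cerebellar granule cells, 6 genes, lay under 10000 in 4 P120 libraries (WT-Veh 1 and 2, WT-Flx 2 and 5) and at 13977 to 42088 in the others. All 13 marker lists were present in every library with no gene at 0. In whole tissue, fewer cells of a type and less RNA per cell cannot be told apart.

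All 7 subunit genes were detected in every library, and the order of their levels differed between P10 and P120. Per kilobase of the longest coding transcript, *Grin1* was the highest of the family in every group. In P10-WT it stood at 3998 ± 157 normalized counts per kb (SD, n = 5), followed by *Grin2b* at 780 ± 37.3, *Grin3a* at 545 ± 40.1, *Grin2d* at 455 ± 33.0, *Grin2c* at 314 ± 76.4, *Grin2a* at 220 ± 16.9 and *Grin3b* at 9.86 ± 1.29. Each gene lay above the next in 5 of 5 mice, except *Grin2d* above *Grin2c* in 4 of 5. In P120-WT-Veh the order was *Grin1* at 5551 ± 520, *Grin2c* at 916 ± 195, *Grin2b* at 456 ± 98.4, *Grin2a* at 334 ± 65.3, *Grin2d* at 242 ± 27.2, *Grin3a* at 207 ± 13.3 and *Grin3b* at 20.4 ± 4.62. On this scale *Grin2c* moved from place 5 to place 2 and *Grin3a* from place 3 to place 6, and the order in P120-WT-Veh was the same without replicate 2. The scale rests on the chosen transcript: with the median coding transcript length, *Grin2b* came first in P10-WT (11870 ± 568) and in P120-WT-Veh (6933 ± 1496, above *Grin1* in 4 of 5 mice), *Grin2a* came to place 3 and *Grin2c* to place 6 in P10-WT, and with the union of exons *Grin2d* lay above *Grin3a* there. The order within a group is therefore not fixed by these data, whereas changes of 1 gene between groups do not depend on its length.

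In WT mice all 7 subunit genes differed between P120 and P10: 4 rose (*Grin1*, *Grin2a*, *Grin2c*, *Grin3b*) and 3 fell (*Grin2b*, *Grin2d*, *Grin3a*). Changes with age were common, since 58.3% of the 17927 genes tested passed the same threshold, 28.9% higher and 29.4% lower. The P10 mice received no fluid regime and the P120 mice saccharin, so age, saccharin and the set of libraries cannot be told apart.

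The obligatory subunit gene *Grin1* stood at 17045, 17658, 16447, 16430 and 17887 normalized counts in P10-WT and at 21274, 26519, 25423, 23470 and 21985 in P120-WT-Veh. Every P120 value was above every P10 value, a rise of 0.47 ± 0.070 on the log2 scale (SE; adjusted p = 8.10e-05, limma with Benjamini-Hochberg adjustment over all genes, as for each adjusted p of a gene here), or 1.38-fold.

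Among the GluN2 genes, *Grin2b*, the early synaptic subunit, stood at 18629, 18704, 18389, 20279 and 17889 in P10-WT and at 13074, 13499, 7808, 9734 and 10723 in P120-WT-Veh. The groups did not overlap and *Grin2b* fell by 0.80 ± 0.126 (adjusted p = 0.000121). *Grin2a*, its later counterpart, stood at 3164, 3316, 3175, 2874 and 3551 at P10 and at 5486, 5485, 3247, 4859 and 5384 at P120. *Grin2a* rose by 0.58 ± 0.129 (adjusted p = 0.00179), and its ranges overlapped through WT-Veh replicate 3, whose 3247 lay among the P10 values. *Grin2c*, the subunit of cerebellar granule cells, stood at 1454, 1583, 1502, 1054 and 2099 at P10 and at 3322, 3959, 5731, 5125 and 4281 at P120. This was the largest rise of the family, 1.55 ± 0.172 or 2.93-fold (adjusted p = 6.55e-06), and the lowest P120 value was above the highest P10 value. The 2 lowest of these P120 values, in WT-Veh 1 and 2, came from the libraries with the lowest cerebellar granule cell markers of their group. Without these libraries the rise was 1.74 (adjusted p = 8.86e-06). *Grin2d*, an early subunit, stood at 2431, 2574, 2409, 2714 and 2240 at P10 and at 1123, 1324, 1390, 1507 and 1227 at P120, with no overlap. *Grin2d* fell by 0.92 ± 0.085 (adjusted p = 1.27e-06).

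Of the GluN3 genes, *Grin3a*, the juvenile subunit, stood at 3986, 4109, 4062, 4537 and 3702 at P10 and at 1464, 1687, 1618, 1503 and 1468 at P120. The lowest P10 value was more than double the highest P120 value, and *Grin3a* fell by 1.40 ± 0.069 (adjusted p = 7.17e-09), to 0.380 of its P10 level, the largest fall of the family. *Grin3b*, known best from motor neurons, was the lowest member at both ages, at 27.7, 32.0, 38.8, 29.7 and 33.7 at P10 and at 45.5, 78.7, 71.1, 81.6 and 57.4 at P120. *Grin3b* rose by 1.00 ± 0.189 (adjusted p = 0.000530), with the overlap with *Tmem259* noted above.

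**Figure D1:**
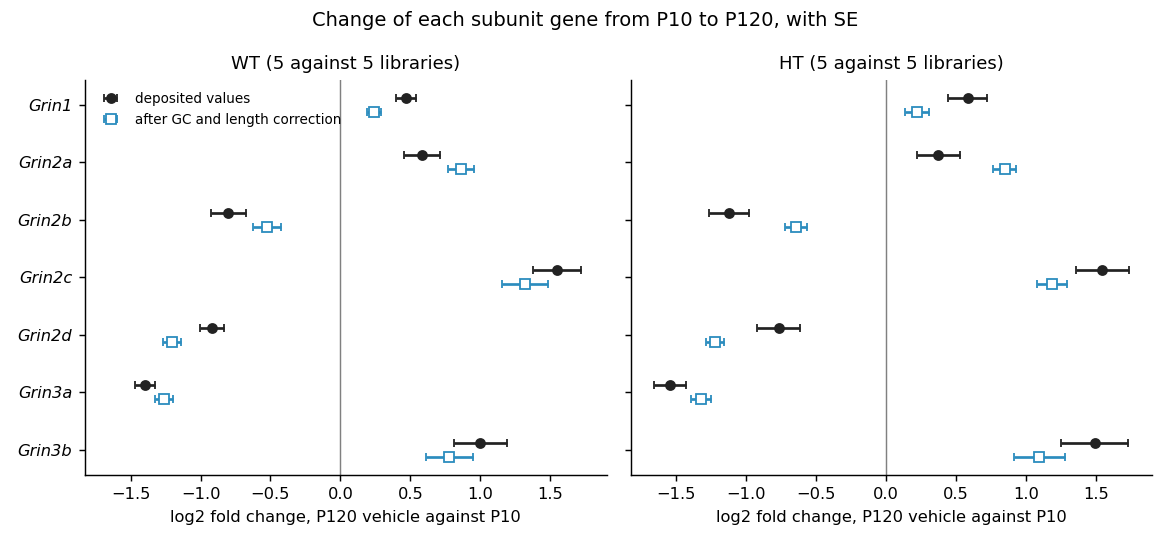
Log2 fold change from P10 to P120 vehicle mice (x axis) of each subunit gene (y axis), WT in the left panel and HT in the right, 5 against 5 libraries each. Filled points are the deposited values, open squares the values after the correction for GC content and length, and bars the SE of the limma fit. *Grin1*, *Grin2a*, *Grin2c* and *Grin3b* lie to the right of 0 and *Grin2b*, *Grin2d* and *Grin3a* to the left in both genotypes and both kinds of value.

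In HT mice, P120-HT-Veh against P10-HT, 6 of 7 subunit genes passed, 3 higher and 3 lower and each in its WT direction, against 51.1% of the 17989 genes tested, 25.8% higher and 25.3% lower. *Grin2c* rose by 1.54 ± 0.189 (adjusted p = 2.68e-05), from 1379 to 2078 in P10-HT to 3400 to 6661 in P120-HT-Veh. *Grin3b* rose by 1.49 ± 0.236 (adjusted p = 0.000214) and *Grin1* by 0.58 ± 0.137 (adjusted p = 0.00341). *Grin3a* fell by 1.55 ± 0.112 (adjusted p = 3.59e-07), with 4882, 4575, 4303, 4913 and 4515 in P10-HT and 1663, 1727, 1235, 1669 and 1695 in P120-HT-Veh. *Grin2b* fell by 1.12 ± 0.143 (adjusted p = 3.68e-05) and *Grin2d* by 0.77 ± 0.154 (adjusted p = 0.00118). *Grin2a*, at 3790, 3359, 3363, 3144 and 3592 in P10-HT and at 3285, 3877, 4462, 6201 and 4999 in P120-HT-Veh, differed by 0.37 ± 0.151 and did not pass (adjusted p = 0.0545).

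The change with age did not differ detectably between the genotypes. The genotype by age term, fitted with vehicle replicates 1, 3, 4 and 5, lay between -0.20 (*Grin2b*) and 0.54 (*Grin3b*), and none of the 7 genes passed (adjusted p from 0.920 to 0.947), as did none of the 17969 genes tested (0%, with 613 at an unadjusted p under 0.05). With all vehicle libraries the terms lay between -0.32 and 0.49. Leaving the vehicle replicates 2 out of the age comparisons kept the 7 WT calls and the 6 HT calls, with *Grin2a* at 0.42 in HT (adjusted p = 0.0515).

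Base composition and cell markers moved with age as well. Over all 30 libraries the GC gap was -0.88 to -0.43 at P10 and -0.52 to 1.11 in the vehicle groups at P120. After a correction that removes, per library, the average deviation of genes of like GC content and length, all 7 WT changes kept their sign and passed: *Grin1* 0.24 (adjusted p = 0.00100), *Grin2a* 0.86 (adjusted p = 4.19e-06), *Grin2b* -0.52 (adjusted p = 0.000465), *Grin2c* 1.32, *Grin2d* -1.20, *Grin3a* -1.26 and *Grin3b* 0.78. In HT all 7 passed after it, and *Grin2a* was then higher at P120 by 0.85 (adjusted p = 1.70e-06). Summed markers of immature neurons were at 12153 to 17593 at P10 and 1249 to 2914 at P120, those of dividing cells at 1936 to 3407 and 58 to 173, and those of mature oligodendrocytes at 94080 to 245770 and 177003 to 279477. Their part in the subunit changes was not tested.

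**Figure D2:**
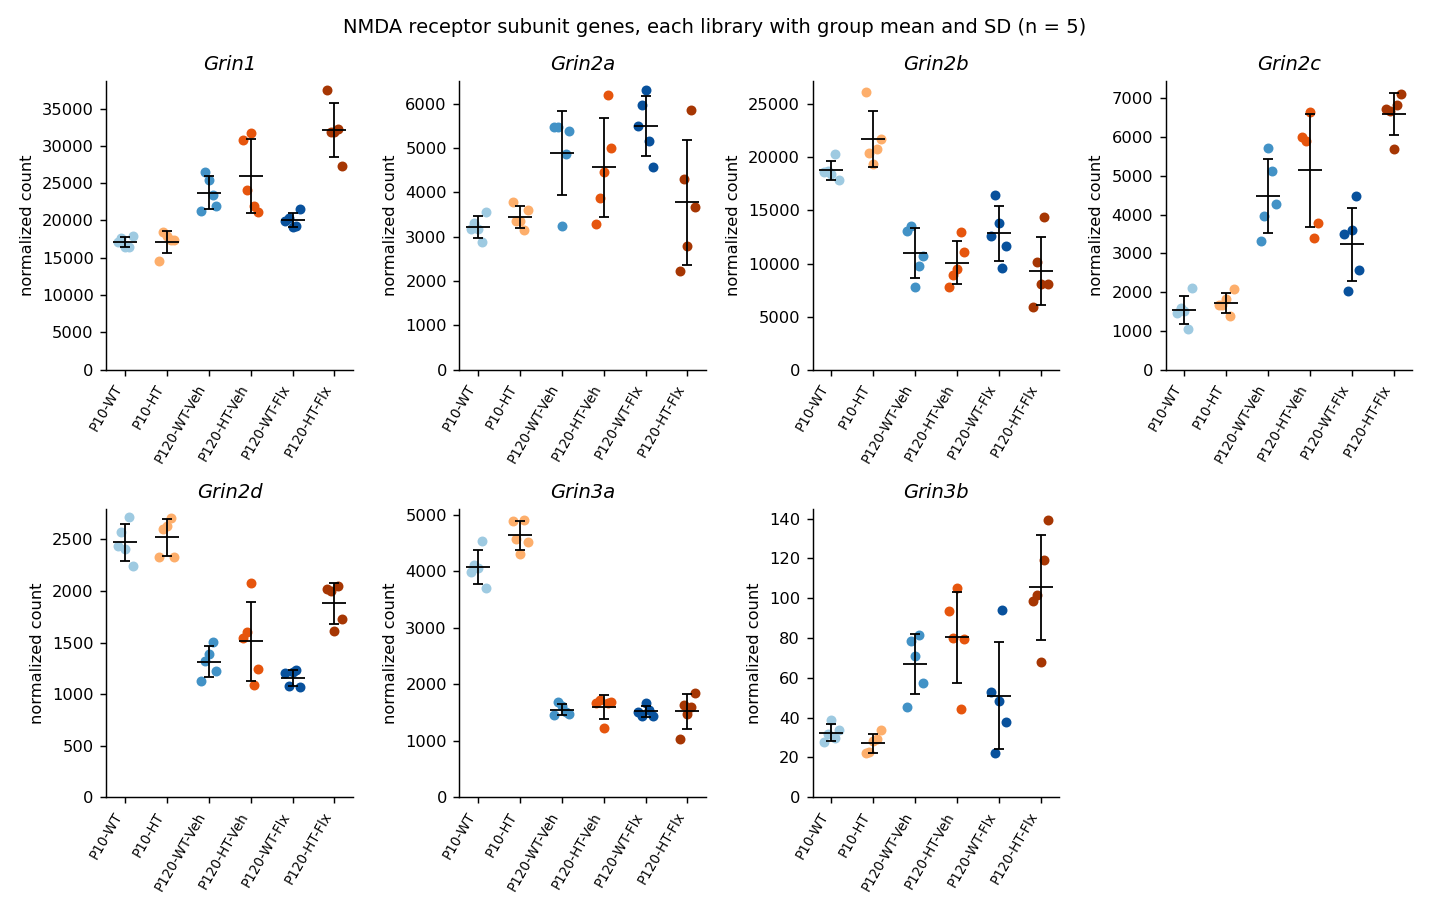
Normalized counts (y axis, linear from 0) of each subunit gene in every library, 1 panel per gene and 1 point per library, by group, with the group mean and SD (n = 5). *Grin3a* separates P10 from P120 without overlap in both genotypes, while *Grin1*, *Grin2c* and *Grin2d* also separate HT-Flx from WT-Flx. In that last comparison 63.7% of all genes tested passed the threshold.

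The *Grin2b* to *Grin2a* ratio, both genes taken per kb, compares the members of the classical switch within a mouse. In P10-WT it was 3.58, 3.43, 3.52, 4.29 and 3.06 (mean 3.58 ± 0.447, SD), and in P10-HT 4.2, 3.70, 3.50, 4.03 and 3.68 (3.82 ± 0.286). At P120 it was 1.45, 1.5, 1.46, 1.22 and 1.21 in WT-Veh (1.37 ± 0.141), 1.44, 1.40, 1.3, 1.27 and 1.35 in HT-Veh (1.35 ± 0.0715), 1.39, 1.68, 1.34, 1.13 and 1.55 in WT-Flx (1.42 ± 0.211) and 1.60, 1.43, 1.75, 1.49 and 1.34 in HT-Flx (1.52 ± 0.161). All 10 P10 values, 3.06 or higher, lay above all 20 P120 values, 1.75 or lower. In WT-Flx the ratio was highest in replicates 2 and 5 (1.68 and 1.55), the libraries with low cerebellar markers. In WT-Veh the low-marker replicates 1 and 2 stood at 1.45 and 1.5, and replicate 3, with a marker sum of 28127, at 1.46. The part of cerebellar content in the ratio was not tested. Other transcript lengths rescale the ratio in every mouse by the same factor, so its level carries that choice and its changes do not.

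The ratio fell by 1.38 ± 0.104 on the log2 scale in WT, to 0.383 of its P10 level, and by 1.495 ± 0.0587 in HT, to 0.355 (exact two-sided permutation test, p = 0.00794 each, the smallest that 5 against 5 allows, and adjusted p = 0.0397 over 10 comparisons of the ratio). Without vehicle replicates 2 the values were -1.42 and -1.51 with the same adjusted p. The fall did not differ detectably between genotypes with vehicle replicates 2 left out (-0.089 ± 0.126, exact permutation p = 0.478, adjusted p = 0.598). At P10 the HT to WT difference was 0.10 ± 0.092 (exact permutation p = 0.294, adjusted p = 0.587), and at P120 between HT-Veh and WT-Veh it was 0.011 ± 0.086 (exact permutation p = 1.00). HT-Flx against HT-Veh gave 0.16 ± 0.076 (exact permutation p = 0.0635, adjusted p = 0.212) and WT-Flx against WT-Veh 0.045 ± 0.119 (exact permutation p = 0.730, adjusted p = 0.811), and without vehicle replicates 2 these were 0.18 and 0.079 (exact permutation p = 0.0794 and 0.563). With all libraries, HT-Flx against WT-Flx gave 0.11 ± 0.119 (exact permutation p = 0.381, adjusted p = 0.598). HT-Flx against WT-Veh gave 0.15 ± 0.096 (exact permutation p = 0.159, adjusted p = 0.397). The interaction of genotype and fluoxetine was 0.12 ± 0.141 (exact permutation p = 0.424, adjusted p = 0.598). *Grin2a* and *Grin2b* have nearly the same GC content and are both long, so the correction for GC content and length shifted both genes by the same amount. These differences were therefore bound to stay unchanged to 2 decimals, and the correction does not test the ratio.

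**Figure D3:**
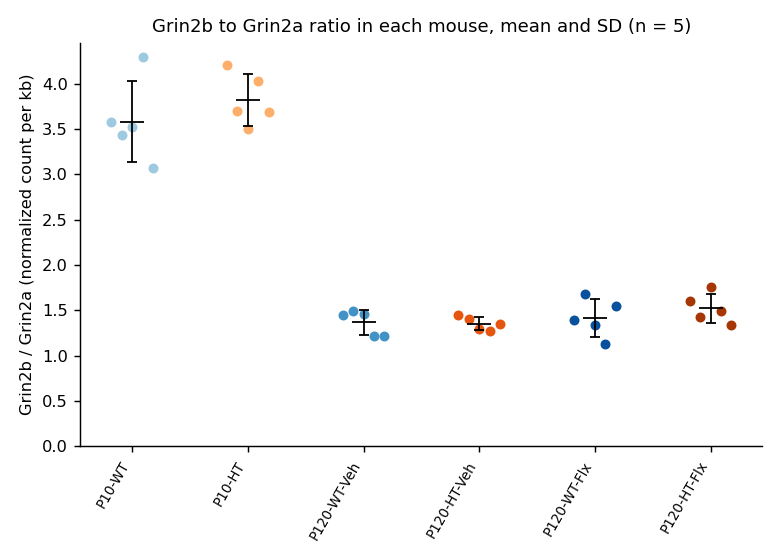
*Grin2b* to *Grin2a* ratio per kb of transcript (y axis) in every mouse, by group, with the mean and SD. The P10 mice lie between 3.06 and 4.29 and the P120 mice of all 4 groups between 1.13 and 1.75.

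Taking each GluN2 gene as a share of the summed *Grin2a*, *Grin2b*, *Grin2c* and *Grin2d* level per kb gave the composition of the GluN2 transcripts. In P10-WT, *Grin2b* made up 44.1% ± 2.66 (SD), *Grin2d* 25.8% ± 2.12, *Grin2c* 17.7% ± 3.97 and *Grin2a* 12.4% ± 0.754. In P120-WT-Veh, *Grin2c* made up 46.8% ± 8.60, *Grin2b* 23.5% ± 5.72, *Grin2a* 17.2% ± 3.75 and *Grin2d* 12.4% ± 0.823. The shares in P10-HT, 46.1% ± 3.29 for *Grin2b* and 18% ± 2.47 for *Grin2c*, and in P120-HT-Veh, 20.8% ± 6.10 and 50.4% ± 9.68, were within the spread of the WT groups of their age. *Grin2c* and not *Grin2a* thus held the largest share in P120-WT-Veh on this scale, but the ranking turned with the median coding transcript length, where *Grin2b* made up 75.3% ± 4.60, *Grin2c* 11.2% ± 4.26 and *Grin2a* 10.6% ± 1.07. Without replicates 2, on the longest transcript, *Grin2c* made up 48.4% ± 9.10 in WT-Veh and 48.9% ± 10.5 in HT-Veh (SD, n = 4). The lowest mean share of *Grin2c* at P120 was in WT-Flx (36.7% ± 8.61) and the highest in HT-Flx (58.1% ± 5.33). In WT-Flx it was 24.3% and 34.7% in replicates 2 and 5, the libraries with low cerebellar markers, and 37.4% to 48.3% in the others. The GC gap also separated WT-Flx from HT-Flx. The part of cerebellar content and of base composition in these shares was not tested. *Grin1* per summed Grin2 was 2.26 ± 0.0491 in P10-WT and 2.85 ± 0.206 in P120-WT-Veh.

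**Figure D4:**
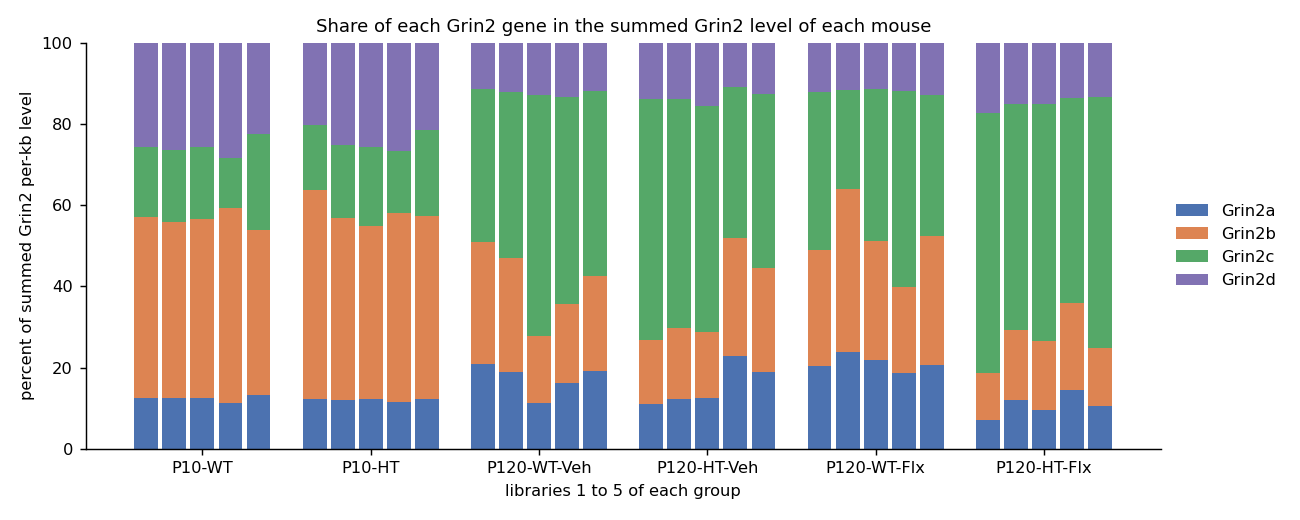
Share of *Grin2a*, *Grin2b*, *Grin2c* and *Grin2d* in the summed GluN2 level per kb of the longest coding transcript (y axis, percent), as 1 stacked bar for each library, 5 a group (x axis). The mean *Grin2b* share is 44.1% and 46.1% at P10 and 16.2% to 30.2% at P120, and the mean *Grin2c* share is 17.7% and 18% at P10 and 36.7% to 58.1% at P120.

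At P10, no subunit gene passed between HT and WT mice (0 of 7, against 0.0224% of 17896 genes tested, that is 4 genes, with 2249 at an unadjusted p under 0.05). The largest standardized differences were in *Grin3a* and *Grin2b*, subunits that are high at this age. *Grin2b* stood at 26180, 20416, 19355, 20831 and 21737 in P10-HT, above every WT value in 4 of 5 mice, a difference of 0.20 ± 0.069 (adjusted p = 0.317). *Grin3a* was above every WT value in 3 of 5 HT mice and differed by 0.19 ± 0.055 (adjusted p = 0.292). P10-HT replicate 1 held the highest *Grin2b* value, the lowest *Grin1* value of the age (14528) and the lowest GC gap (-0.35, others -0.096 to 0.094). Without it *Grin2b* differed by 0.13 (adjusted p = 0.328) and *Grin3a* by 0.17 (adjusted p = 0.345). *Grin1* had the same mean in both genotypes, 17124 ± 1517 in HT and 17093 ± 672 in WT (SD), a difference of -0.0014 ± 0.058 (SE).

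At P120, none of the 7 genes passed between HT-Veh and WT-Veh in replicates 1, 3, 4 and 5, with differences between -0.0091 (*Grin2a*) and 0.29 (*Grin3b*) and an adjusted p of 1.00 each. No gene of 17784 passed (0%, with 229 at an unadjusted p under 0.05), and with 4 against 4 an exact permutation test cannot go below 0.0286. With all 5 and 5 libraries the differences lay between -0.12 (*Grin2b*) and 0.24 (*Grin3b*), and again none passed. The spread within the groups was wide: *Grin1* ran from 21129 to 31705 in HT-Veh, *Grin2c* from 3400 to 6661, and *Grin2b* from 7802 to 12973.

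Fluoxetine within a genotype gave no call either. In HT-Flx against HT-Veh, 0 of 7 genes and 0 of 17676 genes passed (0%, with 4082 at an unadjusted p under 0.05). *Grin2c* differed by 0.41, *Grin1* by 0.32, *Grin2d* by 0.34 and *Grin2a* by -0.32 (adjusted p = 0.215, 0.215, 0.216 and 0.366). In WT-Flx against WT-Veh, 0 of 7 and 0 of 17865 genes passed (0%, with 4504 at an unadjusted p under 0.05). Here *Grin2c* differed by -0.50 ± 0.201 (adjusted p = 0.159) and *Grin1* by -0.24 ± 0.074 (adjusted p = 0.107), and *Grin1* passed once WT-Veh replicate 1 was left out (-0.28, adjusted p = 0.0444), where 1400 of all genes passed as well, 276 higher and 1124 lower. Without WT-Veh replicate 5, 624 genes passed and no subunit gene. With vehicle replicates 1, 3, 4 and 5 only, no subunit gene passed in either comparison.

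The groups that stood apart were HT-Flx and WT-Flx. Of the 7 genes 6 passed, against 63.7% of the 17799 genes tested, 33.1% higher and 30.5% lower, so that most genes passed here. *Grin1* stood at 37538, 31844, 31825, 32194 and 27283 in HT-Flx and at 19957, 20380, 19151, 19276 and 21512 in WT-Flx, without overlap, a difference of 0.67 ± 0.087 (adjusted p = 5.44e-05). *Grin2c* stood at 6715, 6667, 5685, 6842 and 7105 in HT-Flx and at 3502, 2034, 3591, 4470 and 2583 in WT-Flx, also without overlap (1.08 ± 0.176, adjusted p = 0.000213). *Grin2d*, at 2016, 2004, 1614, 2043 and 1727 against 1202, 1080, 1213, 1231 and 1066, differed by 0.69 ± 0.091 (adjusted p = 6.00e-05), also without overlap. *Grin3b* differed by 1.14 ± 0.320 (adjusted p = 0.00748), with ranges that overlapped. The long subunit genes of low GC content were lower in HT-Flx: *Grin2a*, at 2233, 4303, 2785, 5870 and 3672 against 5510, 5965, 6310, 5165 and 4571, by -0.62 ± 0.213 (adjusted p = 0.0226), and *Grin2b* by -0.51 ± 0.209 (adjusted p = 0.0484). *Grin3a*, between the others in GC content, differed by -0.025 (adjusted p = 0.879). When 1 library was left out, *Grin2b* no longer passed in 8 of 10 fits (adjusted p up to 0.120) and *Grin2a* in 3 of 10, without HT-Flx 1, HT-Flx 3 or WT-Flx 3 (0.0501 to 0.0569). The exact permutation test, unadjusted, gave p = 0.0873 for *Grin2b* and p = 0.0476 for *Grin2a*.

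The split of the members in this comparison went with GC content and with transcript length alike, and its cause was not tested. The 4 members with 59.4% GC or more were higher in HT-Flx, and the members with 45.7% or less were lower, while the GC gap of the same libraries was 0.85 ± 0.314 (SD) in HT-Flx and -0.71 ± 0.090 in WT-Flx, without overlap. After the correction for GC content and length no member passed (0 of 7, with 6388 of all genes still past the threshold). The correction would also remove a real change that genes of like GC content and length share. *Grin1* was then at -0.064 (adjusted p = 0.469), *Grin2d* at -0.062 (adjusted p = 0.477), *Grin2a* at 0.057 (adjusted p = 0.694), *Grin2b* at 0.17 (adjusted p = 0.342), *Grin2c* at 0.34 (adjusted p = 0.153) and *Grin3b* at 0.39 (adjusted p = 0.349). *Grin3a*, at -0.025 before the correction, was at 0.16 ± 0.069 after it (adjusted p = 0.0876), the smallest adjusted p of the family. Marker sums also moved with these groups: neuron markers were at 97895 to 137864 in HT-Flx and 148979 to 165585 in WT-Flx, glutamatergic neuron markers at 46926 to 98213 and 34234 to 44153, astrocyte markers at 62745 to 97419 and 103450 to 115718, mature oligodendrocyte markers at 250439 to 279477 and 178474 to 236994, oligodendrocyte precursor markers at 4966 to 6769 and 4468 to 4949, and markers of dividing cells at 58 to 81 and 116 to 173. Their part in the result was not tested. Cerebellar granule cell markers were at 17250 to 42088 in HT-Flx and at 17442, 1575, 18356, 29083 and 3709 in WT-Flx, where replicates 2 and 5 also held the lowest *Grin2c* (2034 and 2583) and *Grin3b* (22.1 and 37.8) values. Without these replicates *Grin2c* differed by 0.78 (adjusted p = 0.000732), *Grin3b* by 0.71 (adjusted p = 0.0444) and *Grin2b* no longer passed (-0.42, adjusted p = 0.162).

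**Figure D5:**
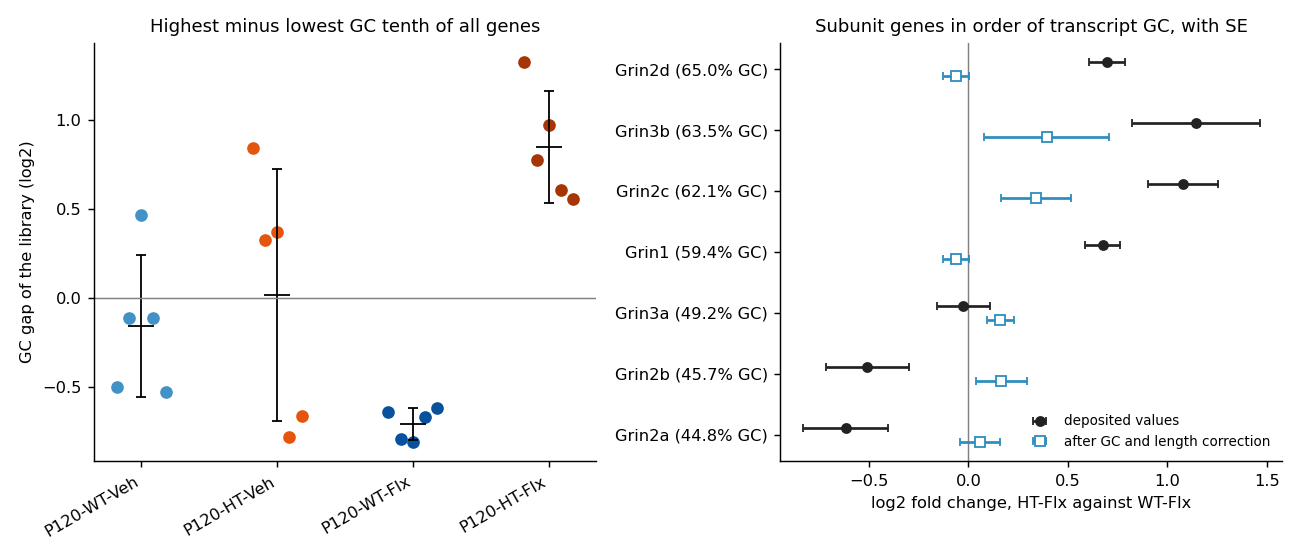
The left panel shows the GC gap (y axis, log2) of each P120 library by group, with the mean and SD, and the right panel the log2 fold change between HT-Flx and WT-Flx (x axis) of the subunit genes in order of GC content, with the SE of the limma fit, for the deposited values (filled) and after the correction for GC content and length (open). The HT-Flx libraries lie at 0.56 to 1.33 and the WT-Flx libraries at -0.81 to -0.62. In the deposited values the 4 genes at 59.4% GC or more lie above 0 and *Grin2a* and *Grin2b* below, and after correction all 7 lie between -0.064 and 0.39.

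HT-Flx was also compared with WT-Veh, which shares the HT-Flx libraries with the comparison above. Of the 7 genes 4 passed, against 43.3% of 17681 genes tested, 23.4% higher and 19.9% lower: *Grin1* by 0.43 ± 0.103 (adjusted p = 0.00842), *Grin2c* by 0.58 ± 0.136 (adjusted p = 0.00825), *Grin2d* by 0.52 ± 0.109 (adjusted p = 0.00742) and *Grin3b* by 0.64 ± 0.219 (adjusted p = 0.0322). All 4 were higher in HT-Flx and passed with WT-Veh replicate 2 left out, at 0.48, 0.54, 0.52 and 0.71. Without both WT-Veh libraries with low cerebellar markers, WT-Veh 1 and 2, *Grin2c* was at 0.39 (adjusted p = 0.0503) and *Grin3b* at 0.56 (adjusted p = 0.103). Neither passed in that fit, where 2909 of all genes passed. *Grin3b* no longer passed when HT-Flx 1, 2, 4 or 5 or WT-Veh 1 or 5 was left out (adjusted p from 0.0547 to 0.0805) or with all P120 groups in one fit (adjusted p = 0.0869). *Grin2a* differed by -0.43 (adjusted p = 0.146) and *Grin2b* by -0.28 (adjusted p = 0.306). After the correction the 4 genes were at -0.034, 0.11, 0.036 and 0.17, and none passed.

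The interaction of genotype and fluoxetine, over all 20 P120 libraries, tests whether the drug acted differently in the genotypes. It passed for 3 of 7 genes, against 27.3% of 17796 genes, 15.8% higher and 11.5% lower: *Grin1* at 0.56 ± 0.164 (adjusted p = 0.0347), *Grin2c* at 0.90 ± 0.290 (adjusted p = 0.0358) and *Grin2d* at 0.52 ± 0.191 (adjusted p = 0.0484). Each of these genes was higher on average under fluoxetine in HT and lower in WT. The calls were lost with vehicle replicates 1, 3, 4 and 5 only (*Grin1* 0.50, *Grin2c* 1.00, *Grin2d* 0.55, with adjusted p = 0.0616, 0.0576 and 0.0714) and after the correction (-0.082, 0.26 and -0.13). All 3 calls were also lost when any 1 of 8 single libraries was left out, HT-Flx 1, WT-Flx 2, WT-Flx 3, HT-Veh 4, HT-Veh 5, WT-Veh 2, WT-Veh 3 or WT-Veh 4. In each of these 8 fits, with vehicle replicates 1, 3, 4 and 5 only and after the correction, no gene of the whole table passed. The *Grin1* effect was 0.49 to 0.57 in these 8 fits, and its 0.0347 was the smallest adjusted p of any gene in the main fit. The *Grin2d* call was lost in 14 of 20 fits without 1 library, with the replicate block (adjusted p = 0.0512), with no filter on low values (0.0525) and without the trend (0.0590).

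Ordered by group mean, the P120 groups ran HT-Flx, HT-Veh, WT-Veh, WT-Flx for *Grin1*, *Grin2c*, *Grin2d* and *Grin3b*, and in the reverse order for *Grin2a* and *Grin2b*. HT-Veh and WT-Veh differed by no more than the larger of their SDs for every member. Without vehicle replicates 2, *Grin2b* stood at 430.3 per kb in HT-Veh and 429.5 in WT-Veh, so their order turned, and *Grin2a* at 323.7 and 324.2. Among P120 neighbours, only WT-Veh and WT-Flx were further apart for *Grin2c* and *Grin2d*, and none for *Grin3b*. For *Grin2a* no neighbours in the order of all 6 groups differed by more than the larger of their SDs, from WT-Flx at 5504 ± 679 to P10-WT at 3216 ± 247. For *Grin2b* the neighbours that did were P10-HT over P10-WT and P10-WT over WT-Flx. For *Grin3a* the 4 P120 groups lay within 1520 to 1598, with no neighbours among them apart by more than their SD, below P10-HT at 4638 ± 258 and P10-WT at 4079 ± 301. *Grin1* neighbours that lay within their spread were HT-Veh and WT-Veh (25916 ± 4965 and 23734 ± 2225) and the P10 groups.

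Genes that act with NMDA receptors moved in both directions with age, beside 28.9% of all genes higher and 29.4% lower in WT. Of 11 genes for supply and removal of the co-agonists 4 rose and 3 fell in WT. *Dao*, the D-amino acid oxidase that degrades D-serine, rose by 3.70 ± 0.324 (adjusted p = 8.08e-07) and *Slc6a9*, the glycine transporter GlyT1, by 0.92 ± 0.107, while *Srr*, the serine racemase that makes D-serine, fell by 0.82 ± 0.124 (adjusted p = 8.59e-05). Of 20 scaffolds and linkers 6 rose and 9 fell. *Kif17*, a kinesin that carries GluN2B vesicles, rose by 0.99 ± 0.112 and *Cask*, a membrane scaffold, fell by 1.25 ± 0.085. Of 17 kinases and phosphatases 8 rose and 6 fell, with *Camk2a*, the alpha subunit of CaMKII, which binds GluN2B, at 1.13 ± 0.113 and *Fyn*, a kinase of GluN2B, at -1.26 ± 0.059. Of 14 receptors and ligands 3 rose and 10 fell, with *Rasgrf1* at 1.38 ± 0.126, the reelin receptor gene *Lrp8* at -1.25 ± 0.082 and the metabotropic glutamate receptor gene *Grm5* at -1.03 ± 0.252. Of 7 regulators linked to the subunit switch 1 rose and 3 fell: the REST co-repressor gene *Rcor2* fell by 1.64 ± 0.122 and the methyltransferase gene *Ezh2* by 1.32 ± 0.107, and the pentraxin gene *Nptx1* rose by 1.77 ± 0.097. The medians of these lists lay between -0.40 (receptors and ligands) and 0.0058 (kinases and phosphatases), beside an all-gene median within 0.034 of 0 in every comparison.

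In HT the same lists gave 5 rises and 2 falls of 11, 4 and 8 of 20, 6 and 6 of 17, 2 and 9 of 14, and 1 and 2 of 7, beside 25.8% of all genes higher and 25.3% lower. Without vehicle replicates 2 the counts were 4 and 1, 3 and 7, 5 and 5, 1 and 9, and 1 and 2 in HT, and in WT 4 and 3, 6 and 9, 7 and 7, 4 and 10, and 1 and 3. *Dao* rose by 3.89 and *Camk2a* by 1.12, while *Srr* was at -0.95, *Fyn* at -1.24, *Cask* at -1.44 and *Grm5* at -1.31, all past the threshold. Between HT-Flx and WT-Flx 8 of the 11 co-agonist genes were higher and 1 lower, with *Slc6a9* at 1.09, *Dao* at 1.61 and *Shmt2*, a mitochondrial serine hydroxymethyltransferase, at 0.74. Of the scaffolds 8 were higher and 8 lower there, with *Dlg4*, which encodes PSD-95, at 0.94 and *Homer1* at -1.25, and *Grm5* was at -1.40. These values stand in the comparison in which 63.7% of genes passed and the GC gap separated the groups. In the genotype comparisons at P10 and P120, fluoxetine within a genotype and genotype by age, no gene of the lists passed.

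The genes most like *Grin2a* and *Grin2b* over the 20 P120 libraries, after each group mean had been subtracted, were genes of low GC content with transcripts of 4410 to 20084 bases. For *Grin2a*, Pearson's r was 0.972 with *Opcml* (Spearman's rho 0.947), 0.963 with *Pclo*, which encodes the active zone protein Piccolo (0.952), 0.962 with *Tnr*, which encodes tenascin-R (0.940), 0.958 with *Reps2* (0.934) and 0.957 with the sodium-calcium exchanger gene *Slc8a1* (0.919), out of 13187 genes ranked. For *Grin2b*, r was 0.948 with *Lrfn5* (0.941), 0.940 with *Cdh6* (0.946), 0.939 with *Lrrc7* (0.953), 0.938 with the potassium channel gene *Kcnq3* (0.941) and 0.937 with *Plcb1* (0.934). All these points share libraries and their GC gap, and the genes have 40.2% to 47.9% GC. Without vehicle replicates 2 (n = 18) r with these genes was 0.933 to 0.971. Over the 10 P10 libraries r with *Grin2a* was -0.221 for *Opcml*, 0.0706 for *Slc8a1*, 0.432 for *Tnr*, 0.589 for *Pclo* and 0.931 for *Reps2*, and with *Grin2b* it ran from 0.778 for *Lrrc7* to 0.969 for *Kcnq3*. *Grin2a* and *Grin2b* had an r of 0.906 with each other at P120 and of 0.243 at P10, and with *Grin1* they had -0.489 and -0.352 at P120, and -0.587 and -0.477 without vehicle replicates 2.

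A promoter window of 300 bases around a start was found in the RefSeq table (GRCm38.p6) for 4 of the members, *Grin1*, *Grin2c*, *Grin2d* and *Grin3b*. The GC box GGGCGG, on either strand, was present in those of *Grin1* and *Grin2c* and in 35.7% of all 32851 promoters of the table, and the EGR-type motif GCGGGGGCG, which can overlap a GC box, in that of *Grin1* and in 2.91% of all. The cyclic AMP response element TGACGTCA (1.79% of all), and the REST half-site letters TCAGCACC (1.65%) and GGACAGC (6.56%), were in none of the 4 windows. The *Grin2d* window, chr7:45866632-45866931, lies inside the gene span given above and not at its 5′ end, so it covers an internal start.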

How the data were processed

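Poly-A RNA of whole brain was sequenced as paired-end reads (TruSeq RNA Sample Prep Kit v2, NovaSeq). The authors estimated transcript abundance with Salmon 1.1.0 on GRCm38 with its GC-bias option, summed it to genes with tximport and normalized it with DESeq2 1.30.1, and the deposited signal is therefore normalized counts, with no whole reads (0% of values above 0 were whole within 1e-06). Sequencing depth is unknown, no counting error can be given, so precision rests on the spread between mice alone. Library sums were 31578614 to 32445810 at P10 and 32484635 to 41801037 at P120.

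Groups came from the sample labels. Genes with a mean of at least 10 over the compared libraries were tested on log2(value + 1) with limma 3.58.1 in R 4.3.3 (empirical Bayes with trend, Benjamini-Hochberg over all genes, threshold 0.05), so a fold change is on that scale and understates the change of low genes. A count model was not used because the values are not counts. Single values and the ratio had exact two-sided permutation tests, and the smallest p is 0.00794 for 5 against 5. P-values measure the spread between mice of 1 group, which were separate animals. Fluoxetine and vehicle were given to dams, and the labels name no dam or litter. Mice of a group may share a dam, so an effect of litter cannot be told apart from one of the drug. The correction for base composition grouped genes into 10 classes of GC content by 10 of length (100 bins) and removed from each gene its library's average deviation in that bin. Lengths, positions and coding sequence came from the GRCm38 annotation GENCODE vM21, and 99.9% of identifiers matched a symbol. Levels are per kb of the longest coding transcript. The members and the gene lists were chosen with earlier results of these data known. All members were named, and of each associated list the called genes with the largest changes in each direction, with those in the text picked from them. The shared stretch of the third transmembrane segment was shortened to 7 codons after the reference had been seen. This stretch of the other members is not reported here. Fits were tested on simulated data. The alternatives were no filter, a minimum mean of 100, pseudocounts of 5 and 0.1, rescaled libraries, no trend, all groups in one fit, the replicate number as a block, the GC and length correction alone and with the block, other vehicle libraries, each library left out, and, chosen after seeing the data, leaving out the 4 libraries with low cerebellar markers and repeating levels, shares, correlations and list counts without vehicle replicates 2.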

Additional observations from a re-analysis of the deposited data

Results flagged for a closer look

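In groups of 5, chance sets apart about 1 in 20 groups under the test for a lone extreme value used here, and 3 of 48 groups of subunit values were set apart. *Grin1* in P10-HT replicate 1 was 14528, below the other P10-HT mice at 17326 to 18436, and the GC gap of that library was the lowest at P10. *Grin2a* in P120-WT-Veh replicate 3 was 3247, below the other WT-Veh mice at 4859 to 5486, and the GC gap of that library, 0.46, was the highest of its group. *Grin3a* in P120-HT-Veh replicate 3 was 1235, below the other HT-Veh mice at 1663 to 1727.

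The interaction of genotype and fluoxetine passed in limma for *Grin1* (0.56), *Grin2c* (0.90) and *Grin2d* (0.52), while no subunit gene passed for fluoxetine within either genotype. All 3 calls were lost with vehicle replicates 1, 3, 4 and 5 only (adjusted p = 0.0616, 0.0576 and 0.0714), and in several fits without a single library. No gene of the whole table passed in any of these fits. All 3 genes are short and have 59.4% GC or more, and the GC gap of the libraries differed between HT-Flx and WT-Flx in the same direction. None of the 3 passed after the correction for GC content and length. The part of base composition and length in these values was not tested.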

How the results depend on the processing

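Of 583 values of the called subunit changes recomputed under the alternatives, 492 kept their direction and side of the threshold, 77 kept only the direction and 14 changed sign, while of 996 values of changes not called 7 passed. All 14 changes of sign came with the GC and length correction, alone or with the replicate block, with the same values: HT-Flx against WT-Flx *Grin1* -0.064, *Grin2a* 0.057, *Grin2b* 0.17 and *Grin2d* -0.062, HT-Flx against WT-Veh *Grin1* -0.034, and the interaction *Grin1* -0.082 and *Grin2d* -0.13. Under both settings the subunit genes called became 0 in these 3 comparisons, from 6, 4 and 3. The interaction also gave 0 with vehicle replicates 1, 3, 4 and 5 only and 0 with low cerebellar libraries left out, which left 2 for HT-Flx against WT-Veh. Leaving out 1 library gave 0 to 1 subunit calls for WT-Flx against WT-Veh, 4 to 6 for HT-Flx against WT-Flx, 3 to 4 for HT-Flx against WT-Veh, 0 to 3 for the interaction, 7 to 7 for age in WT and 6 to 7 for age in HT. The *Grin2b* call in HT-Flx against WT-Flx (adjusted p = 0.0484) was lost with no filter (0.05002), no trend (0.0720) and the block (0.0653).

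Same-numbered mice did not deviate together in all pairs of any comparison (mean correlations -0.075 to 0.279, and at most 4 of 5 mice closest to their own number), so the numbers were not taken to pair mice. The replicate block moved the count of all genes called in HT-Flx against HT-Veh from 0 to 1355 and changed no subunit call there. With the block the age difference of the ratio was -1.38 in WT and -1.495 in HT but no longer passed (adjusted p = 0.212 each), because an exact test over 5 pairs cannot go below 0.0625. With low cerebellar libraries left out the fall in WT was -1.46 (adjusted p = 0.0893), at the smallest p that design allows, and without 1 library it was -1.44 to -1.32 in WT and -1.53 to -1.46 in HT. All genes called in the interaction ran from 0 to 7667 when 1 library was left out and were 0 after the correction. For the other changes of a count the cause was not tested. Depth is unknown, so low levels such as those of *Grin3b* carry an unknown counting error.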
